A study of Mus musculus with 11 samples.

Results

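The binding regions around Sox2 were taken as all ChIP-seq peaks with a midpoint within 200 kb to either side of the Sox2 gene body, in 10 deposited lists. The window held 124 of the 1004445 peaks, and 5 of these overlapped the coding sequence within the Sox2 exon and were kept apart. Each list came from 1 library of mouse epiblast stem cells (EpiSCs) of strain 129/Sv, grown without feeders in N2/B27 medium with Fgf2 at 10 ng/ml and activin at 20 ng/ml (EpiSC), or deprived of activin for the last 18 h before harvest (EpiSCA). In every culture, a plasmid transiently expressed ZIC2, OTX2, SOX2, POU5F1 or POU3F1 fused to the biotin acceptor sequence BLRP, together with the biotin ligase BirA, from the broadly active pCAGGS vector, and streptavidin captured the bound chromatin. The lists therefore report a tagged, exogenous factor beside the endogenous one. They contain positions and scores but no expression values, so markers of the EpiSC state could not be checked in them. There was 1 library for each factor and culture, with no replicate, so every comparison was between libraries and no test was possible.

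Sox2 encodes a SOXB1 transcription factor with an HMG-box DNA-binding domain, which is required in the epiblast and in neural progenitors and often binds DNA next to POU factors. The gene has a single exon, lies within the long non-coding RNA gene Sox2ot on the same strand, and is controlled by many separate enhancers spread over a wide region with few other genes. Among them, the upstream N2 enhancer is known to be active in EpiSCs and the early neural plate, and the downstream SRR2 enhancer is known for an octamer, the sequence bound by POU factors, placed beside a SOX sequence.

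On mm9, Sox2 (ENSMUSG00000074637.3) occupies 34548927 to 34551383 of chromosome 3 on the plus strand, and the window ran from 34348927 to 34751383, a span of 402 kb. GENCODE vM1 places Sox2ot (ENSMUSG00000090828.2) from 34003360 to 34581541, so that its introns and exons cover the whole upstream side and end 32.6 kb past the Sox2 start. The only other annotated genes in the window were the microRNA genes AC137708.1 and Mir1897. Distances below are from the Sox2 start to the peak midpoint. At the edges of the window, the last peaks inside were 190 kb upstream and 197 kb downstream of the gene body, and the first outside were 204 kb upstream and 202 kb downstream.

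Sequences of the regions on which the results turn are given on the plus strand of mm9. Capitals mark exact matches on either strand to binding sequences, which are the octamer ATGCAAAT or ATGCATAT, the SOX sequences (ACAAAA or ACAAAG, with ACAATA or ACAATG as further forms), the OTX sequences (GGATTA or GGTAAT) and a ZIC stretch. The last is 7 bases long, each of them G or C except the middle one, which is A or T. The octamer, SOX and GGTAAT forms follow the study, whereas GGATTA and the fixed length of the ZIC stretch were chosen for these counts. The study allowed more deviations from the octamer than were counted here, where matches were exact or, where stated, had up to 1 mismatch. The N2 enhancer and the sites 15.4 and 18.0 kb downstream are shown because each belongs to a site with 3 factors in 1 of the cultures. N2 was located as the EpiSC site within 5 kb upstream of Sox2 where peaks of ZIC2, OTX2 and POU5F1 overlap, so that overlap is how the site was found and not a result. At the site 18.0 kb downstream, the stretch shown lies in the POU5F1 and POU3F1 peaks, and the ZIC2 peak overlaps only the POU5F1 peak, beyond this stretch. The 3 sequences span chr3:34545228-34545527, chr3:34564136-34564435 and chr3:34566814-34567113.
N2: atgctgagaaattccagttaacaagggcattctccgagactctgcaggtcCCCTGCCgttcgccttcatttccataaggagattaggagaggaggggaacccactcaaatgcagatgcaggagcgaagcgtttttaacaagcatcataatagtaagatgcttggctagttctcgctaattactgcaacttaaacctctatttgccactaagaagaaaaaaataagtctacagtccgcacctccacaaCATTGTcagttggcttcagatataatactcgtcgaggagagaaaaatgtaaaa
Site 15.4 kb downstream: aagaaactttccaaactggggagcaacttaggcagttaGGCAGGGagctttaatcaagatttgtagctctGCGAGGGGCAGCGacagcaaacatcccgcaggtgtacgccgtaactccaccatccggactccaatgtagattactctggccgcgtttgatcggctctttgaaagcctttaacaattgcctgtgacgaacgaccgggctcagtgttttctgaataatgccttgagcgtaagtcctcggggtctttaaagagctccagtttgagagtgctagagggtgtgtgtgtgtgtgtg
Site 18.0 kb downstream: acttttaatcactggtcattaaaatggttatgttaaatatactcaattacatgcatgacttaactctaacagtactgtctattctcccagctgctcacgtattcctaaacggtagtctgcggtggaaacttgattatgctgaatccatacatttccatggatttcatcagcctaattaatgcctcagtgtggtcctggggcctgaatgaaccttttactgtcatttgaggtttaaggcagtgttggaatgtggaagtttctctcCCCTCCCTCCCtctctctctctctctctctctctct
The remaining sites were chosen after their values were seen. The site 7.50 kb upstream (chr3:34541281-34541580) held the highest ZIC2 and OTX2 scores of EpiSC outside the coding sequence, and the site 4.02 kb downstream (chr3:34552802-34553101) was the place in the window where a SOX sequence stood beside an octamer.
Site 7.50 kb upstream: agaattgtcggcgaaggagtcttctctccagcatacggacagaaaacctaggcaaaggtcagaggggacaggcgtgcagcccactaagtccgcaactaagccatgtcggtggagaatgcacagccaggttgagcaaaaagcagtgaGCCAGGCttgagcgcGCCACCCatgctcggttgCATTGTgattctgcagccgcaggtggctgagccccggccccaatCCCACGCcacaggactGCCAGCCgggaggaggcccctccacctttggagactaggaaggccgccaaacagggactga
Site 4.02 kb downstream: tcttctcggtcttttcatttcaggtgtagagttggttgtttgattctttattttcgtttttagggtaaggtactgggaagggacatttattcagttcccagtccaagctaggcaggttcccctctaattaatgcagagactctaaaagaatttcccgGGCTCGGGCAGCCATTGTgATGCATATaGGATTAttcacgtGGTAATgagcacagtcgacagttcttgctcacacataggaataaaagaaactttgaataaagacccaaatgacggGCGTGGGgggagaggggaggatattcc
The sites 90.8 kb upstream (chr3:34458019-34458218), 49.8 kb upstream (chr3:34499061-34499260) and 181 kb downstream (chr3:34729732-34730031) held the highest SOX2, POU5F1 and POU3F1 scores of EpiSC outside the coding sequence. The latter 2 hold stretches of alternating purines and pyrimidines, the longest of 18 and 47 bp, which are left in lower case.
Site 90.8 kb upstream: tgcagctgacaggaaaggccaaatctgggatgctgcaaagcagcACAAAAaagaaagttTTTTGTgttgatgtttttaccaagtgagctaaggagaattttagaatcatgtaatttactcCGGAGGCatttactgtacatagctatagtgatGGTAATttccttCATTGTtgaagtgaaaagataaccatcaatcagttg
Site 49.8 kb upstream: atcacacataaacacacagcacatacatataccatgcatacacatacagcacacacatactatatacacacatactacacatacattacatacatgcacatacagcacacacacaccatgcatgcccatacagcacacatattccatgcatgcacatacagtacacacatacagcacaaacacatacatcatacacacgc
Site 181 kb downstream: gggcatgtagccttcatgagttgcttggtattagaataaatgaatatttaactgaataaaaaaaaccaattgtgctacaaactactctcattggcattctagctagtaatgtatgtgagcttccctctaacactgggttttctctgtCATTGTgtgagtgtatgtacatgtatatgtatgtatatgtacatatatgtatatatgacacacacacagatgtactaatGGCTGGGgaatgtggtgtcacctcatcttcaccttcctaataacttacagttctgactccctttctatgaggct

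Outside the coding exon there were 53 peaks in the EpiSC lists and 66 in the EpiSCA lists. ZIC2, a zinc finger factor, had the most, with 19 in EpiSC and 22 in EpiSCA, followed by the homeodomain factor OTX2 with 13 and 15. POU5F1 (Oct4), the POU factor of pluripotent cells, had 11 and 18, and SOX2 itself had 9 in each culture. POU3F1 (Oct6), a POU factor of the epiblast and neural lineages, had 1 peak in EpiSC and 2 in EpiSCA. The score of a peak is −10 times the logarithm to base 10 of its MACS p-value, with a minimum of 50 in these lists, and it rises with read depth, which is unknown here. A score of 3100 recurred as a common upper value, given to 3117 POU5F1 peaks of EpiSCA and 772 ZIC2 peaks of EpiSC with 356 and 119 peaks above it, so differences among the strongest peaks are not resolved. The median score of the window peaks of each list lay between percentiles 27.1 and 50.3 of all peaks in that list, so as a group they were near or below the middle of their lists. The map of peaks over the window shows that ZIC2 and POU5F1 peaks reached across it, whereas the OTX2 and SOX2 peaks with the highest scores were upstream of or close to the gene.

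**Figure D1:**
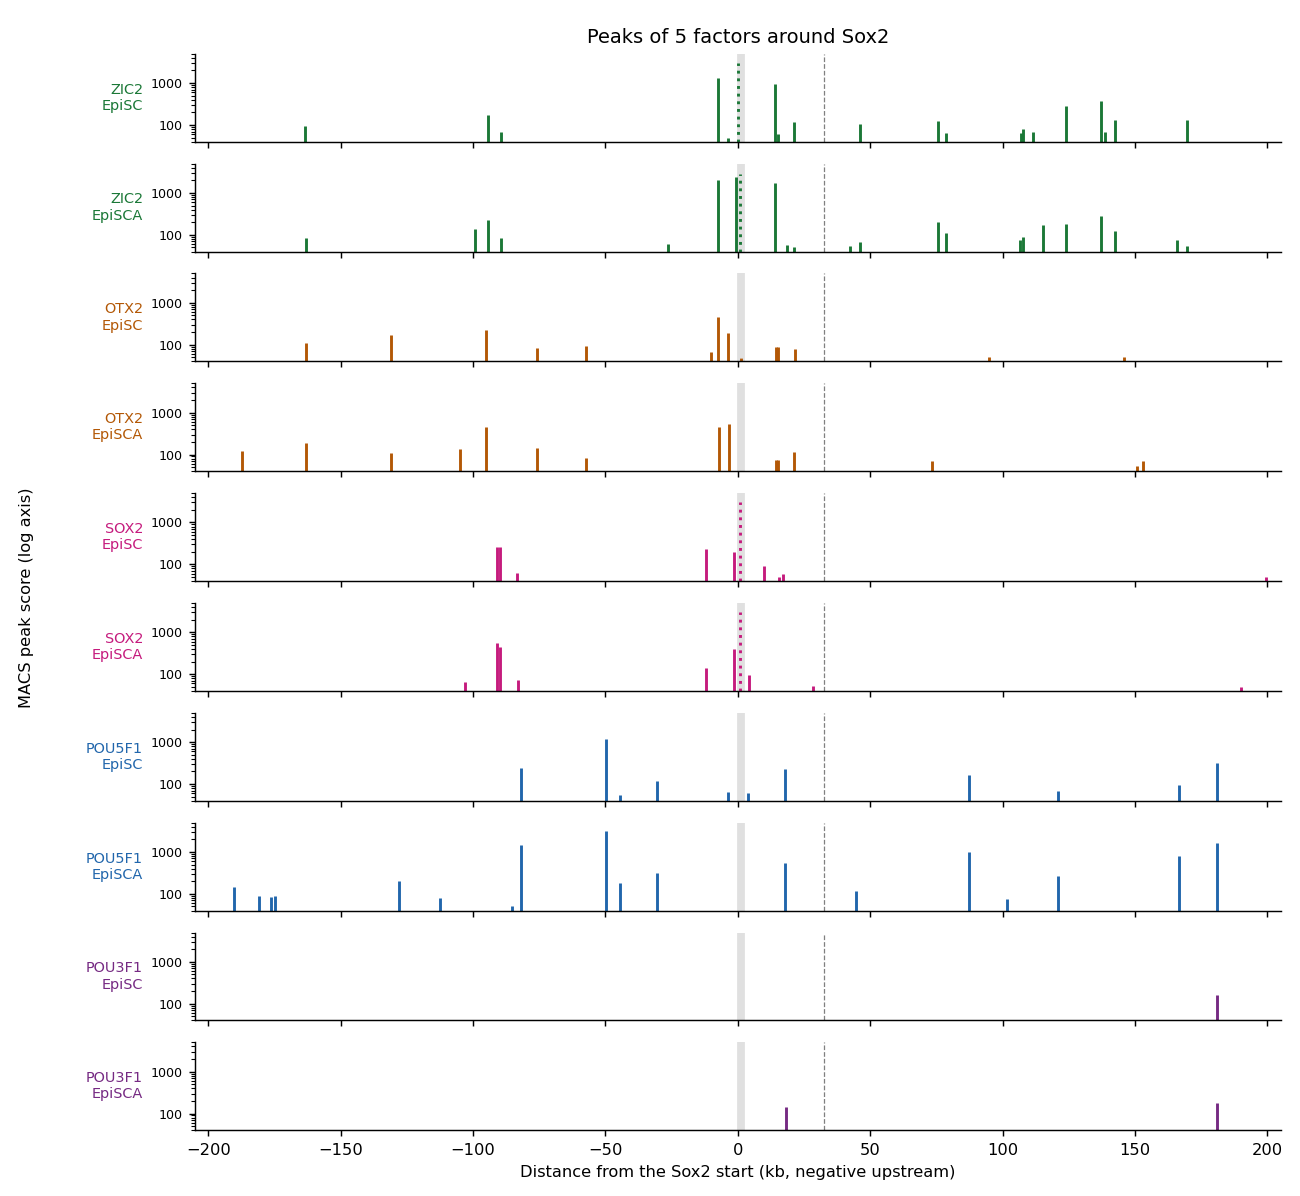
All 124 peaks of the window in 10 tracks, 1 for each factor and culture, placed by the distance of the midpoint from the Sox2 start (kb, negative upstream) with the score as height on a log axis. Dotted lines are the 5 peaks on the coding sequence, the grey band is the Sox2 gene and the dashed line is the end of Sox2ot; POU3F1 has 1 peak in EpiSC and 2 in EpiSCA.

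The coding sequence was covered by peaks of SOX2 and ZIC2 in both cultures and touched by 1 OTX2 peak, and a plasmid that carries the Sox2 coding sequence can add reads there in the SOX2 libraries. In EpiSCA the SOX2 peak ran from 34549245 to 34550399, scored 3100, and extended 93 bp before and 105 bp after the 957 bp coding sequence. In EpiSC the SOX2 peak also scored 3100 and extended 346 bp and 329 bp beyond the coding sequence. The study attributed the strong SOX2 peak on the gene itself to carryover of the vector for tagged SOX2. The vector holds the coding sequence without its genomic flanks, and the part of vector DNA in these peaks was not tested here. The ZIC2 peaks differed at their upstream edge. In EpiSC a single ZIC2 peak began 2024 bp before the coding sequence and ended 356 bp after it, with a score of 3100. In EpiSCA the same stretch was listed as 2 ZIC2 peaks, one from 34547237 to 34549243 (score 2427) upstream of the coding sequence and the other from 34549275 to 34550647 (score 2762) over all of it. The OTX2 peak, from 34549977 to 34550586 in EpiSC, had a score of 51.9 and covered 33.2% of the coding sequence, and no OTX2 peak was listed there in EpiSCA. POU5F1 and POU3F1 had 0 peaks on it in either culture.

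Immediately upstream of the gene, SOX2 had peaks of its own that do not touch the coding sequence. The SOX2 peak 1.39 kb upstream in EpiSC (34547091 to 34547978) scored 200, and the peak 1.48 kb upstream in EpiSCA (34546996 to 34547893) scored 390. Both lay within or across the edge of the ZIC2 peak that covers the Sox2 start, so ZIC2 and SOX2 peaks overlapped at the promoter in both cultures. In the EpiSC lists this ZIC2 coverage belongs to the peak on the coding sequence, and the site was therefore counted as one with 2 factors in EpiSCA alone.

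At N2, located by its 3 EpiSC peaks, OTX2 alone was listed in EpiSCA. The EpiSC peaks shared 465 bp, from 34545145 to 34545609, centred 3.55 kb upstream, and the scores there were 50.3 for ZIC2, 188 for OTX2 and 65.8 for POU5F1. The ZIC2 score was at percentile 0.329 of its list, just above the lowest value the lists contain, and the POU5F1 score was at percentile 16.7. In EpiSCA the OTX2 peak ran from 34544859 to 34546726, was 1868 bp wide and scored 528, the highest OTX2 score of that list in the window and 2.81 times its EpiSC score. The EpiSC OTX2 peak was 949 bp wide, and the median ratio over all OTX2 pairs was 1.34. A score belongs to the whole peak, and the EpiSCA peak reached beyond the shared 465 bp, so the higher score cannot be placed within N2. The printed N2 sequence held 1 ZIC stretch and 1 SOX sequence, no GGATTA or GGTAAT and no exact octamer, but 2 matches to the octamer with 1 mismatch.

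The site with the highest ZIC2 and OTX2 scores of EpiSC lay upstream of N2 and was nearly unchanged in width between the cultures. The ZIC2 peak 7.56 kb upstream in EpiSC scored 1332 and that 7.41 kb upstream in EpiSCA scored 2032, with widths of 1236 and 1286 bp. OTX2 scored 463 in EpiSC and 451 in EpiSCA over 2411 and 2530 bp, the widest OTX2 peaks of the window in either list. The 300 bp shown for this site had 60% GC against 44.6% in the window as a whole, with 4 ZIC stretches and 1 SOX sequence. SOX2 was listed farther upstream, in a Sox2ot exon 11.9 kb from the Sox2 start beside Mir1897, with scores of 233 in EpiSC and 142 in EpiSCA.

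Downstream of the gene, a POU5F1 and a SOX2 peak of different cultures overlapped at a SOX sequence beside an octamer. In EpiSC a POU5F1 peak (34552492 to 34553181) scored 59.7, at percentile 11.1 of its list, and in EpiSCA a SOX2 peak (34552721 to 34553260) scored 97.2, at percentile 46.1. Each was listed in 1 culture only, and they shared 461 bp. In the printed sequence of the site 4.02 kb downstream, counted from 1 at its first base, the SOX sequence CATTGT stood at bases 170 to 175, the octamer ATGCATAT at 177 to 184, GGATTA at 186 to 191 and GGTAAT at 199 to 204. A SOX sequence 1 base from an octamer in this orientation occurred 1 time in the 402 kb of the window, here, among 46 octamers. Over all EpiSCA SOX2 peaks, 0.0205% held this arrangement within 100 bp of the midpoint, against 0.00513% of flanking stretches of the same size. A match of letters does not show that a factor binds there.

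Farther downstream, a ZIC2 peak of high score was followed by a run of sites shared between factors. The ZIC2 peak 13.9 kb downstream scored 966 in EpiSC and 1743 in EpiSCA, and OTX2 peaks of 88.6 and 72.3 overlapped it. At the site 15.4 kb downstream, in a Sox2ot exon, ZIC2, OTX2 and SOX2 peaks overlapped in EpiSC with scores of 61.1, 89.1 and 51.3. In EpiSCA OTX2 alone was listed at this site, with a score of 75.9. At the site 18.0 kb downstream POU5F1 alone was listed in EpiSC, with a score of 224, whereas POU5F1 (531) was listed in EpiSCA with POU3F1 (145) and ZIC2 (57.0), which each overlapped POU5F1 but not each other. The POU3F1 peak is the closest of that factor to Sox2. At 21.4 kb downstream, ZIC2 and OTX2 overlapped in both cultures, with ZIC2 scores of 120 in EpiSC and 52.3 in EpiSCA and OTX2 scores of 80.4 and 116.

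**Figure D2:**
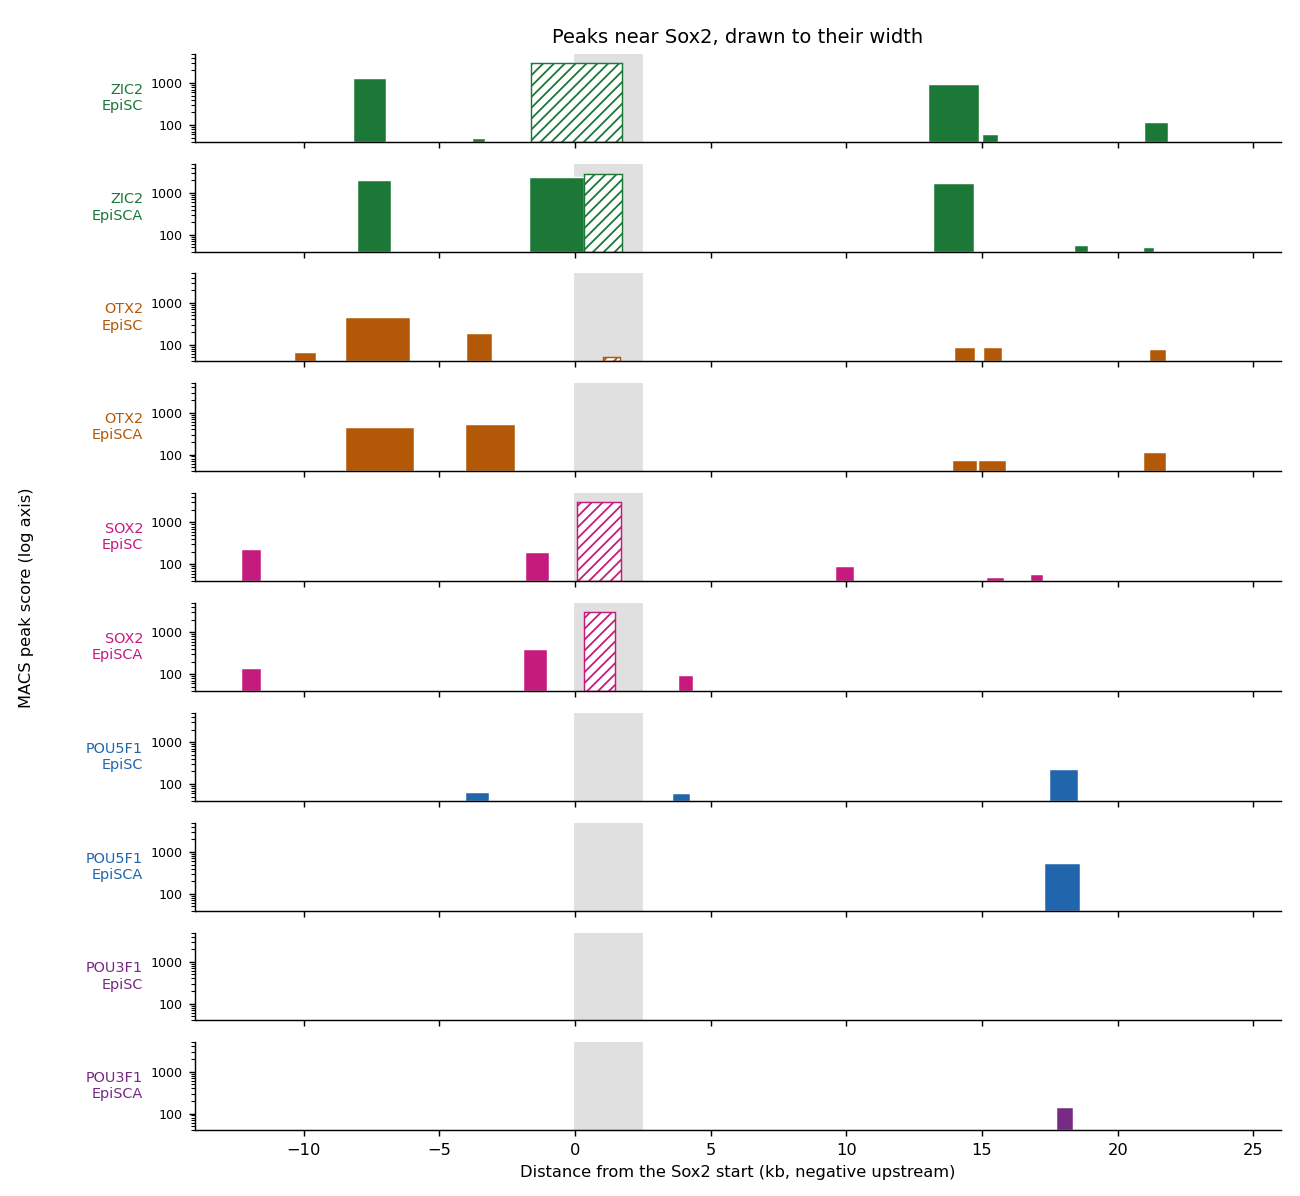
Peaks close to Sox2, drawn from start to end, by distance from the Sox2 start (kb, negative upstream), with the score as height on a log axis. Hatched bars are peaks on the coding sequence and the grey band is the Sox2 gene; at N2, about 3.55 kb upstream, ZIC2, OTX2 and POU5F1 have bars in EpiSC and OTX2 alone in EpiSCA.

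Farther upstream, within Sox2ot, the high scores belonged to SOX2 and POU5F1 at separate places. SOX2 had 2 adjacent peaks 90.7 and 89.8 kb upstream in EpiSC, with scores of 262 and 253, and the matching peaks in EpiSCA scored 550 and 458. These were the highest SOX2 scores of the window outside the coding sequence in both cultures, at percentile 91.8 of the EpiSC list and 97.8 of the EpiSCA list. The second of the pair lay on a Sox2ot exon and overlapped a ZIC2 peak of score 67.9 in EpiSC and 85.8 in EpiSCA. POU5F1 had its highest score 49.8 kb upstream, with 1158 in EpiSC and 3100 in EpiSCA, where 3100 is the recurrent upper value, and a further peak 81.9 kb upstream with 238 and 1465. No peak of another factor overlapped POU5F1 at either place. ZIC2 and OTX2 peaks overlapped 163 kb upstream, with scores of 95.0 and 109 in EpiSC, and again 94.4 kb upstream for ZIC2 (177) and 95.1 kb for OTX2 (220), and both sites were also shared in EpiSCA. The widest stretch of the window without a peak lay within Sox2ot and measured 31.2 kb.

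Past the end of Sox2ot, ZIC2 made up most of the peaks. Of 19 EpiSC peaks there, 11 were of ZIC2, 4 of POU5F1, 2 of OTX2, 1 of SOX2 and 1 of POU3F1. In EpiSCA there were 23, with 12 of ZIC2, 6 of POU5F1, 3 of OTX2, 1 of SOX2 and 1 of POU3F1. The highest ZIC2 score in this region was found 137 kb downstream, with 380 in EpiSC and 278 in EpiSCA, and the next in EpiSC at 124 kb, with 290 and 183. The OTX2 scores here were between 50.7 and 69.7, near the minimum. POU5F1 peaks stood 87.3, 121, 167 and 181 kb downstream in EpiSC, with scores of 163, 69.4, 95.3 and 310, and all were listed in EpiSCA with scores of 996, 261, 811 and 1617. The most distant of these sites overlapped the POU3F1 peak, which scored 159 in EpiSC and 181 in EpiSCA. A downstream distal control region of Sox2 is known from embryonic stem cells, but its position is not given in the files used here and no peak was assigned to it.

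Most EpiSC peaks of the window were also listed in EpiSCA. Of the 53, 40 (75.5%) overlapped an EpiSCA peak of the same factor by at least 1 bp, and of the 66 EpiSCA peaks, 41 (62.1%) overlapped an EpiSC peak. For ZIC2, 15 of 19 EpiSC peaks were also listed in EpiSCA, where 78.9% of all EpiSC ZIC2 peaks were, and 16 of 22 EpiSCA peaks were listed in EpiSC, where the whole list gave 91.2%. The 16 include the EpiSCA peak from 34547237 to 34549243, which overlapped only the EpiSC ZIC2 peak on the coding sequence. For OTX2 the counts were 10 of 13 (78.1% over the whole list) and, in the other direction, 10 of 15 (67.5%). For SOX2 they were 5 of 9 (77.6%) and 5 of 9 (55.9%). POU5F1 had 9 of 11 (98.3%), and the 2 exceptions were the peaks at N2 and 3.91 kb downstream, the only POU5F1 peaks within 10 kb of the Sox2 start. In the other direction, 9 of 18 POU5F1 peaks of EpiSCA were listed in EpiSC, against 47.1% of the whole list, which was about the same. For POU3F1 the counts were 1 of 1 (82.6%) and 1 of 2 (86.8%).

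Peaks listed in 1 culture were mostly of low score. In EpiSC the unmatched peaks had median scores of 63.8 for ZIC2, 51.9 for OTX2, 54.9 for SOX2 and 62.7 for POU5F1, whereas the matched ones had medians of 128, 102, 233 and 163. In EpiSCA the 9 unmatched POU5F1 peaks scored 51.7 to 199 with a median of 87.5, and the 9 matched ones 180 to 3100 with a median of 811. Of these unmatched POU5F1 peaks, 7 were upstream of Sox2, within Sox2ot, and 2 were downstream. The highest-scoring unmatched peak of any other factor was that of ZIC2 115 kb downstream in EpiSCA, with 173. The part of read depth, which is unknown, in these differences was not tested.

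Where a peak was listed in both cultures, the POU5F1 score was always higher in EpiSCA. The 9 pairs had EpiSCA scores between 2.37 and 8.50 times the EpiSC score, with a median of 3.76, against a median of 3.83 over all 61413 POU5F1 pairs, 98.3% of which were higher in EpiSCA. The pair 49.8 kb upstream, with a ratio of 2.68, includes the recurrent score of 3100. The rise of POU5F1 scores at Sox2 was about that of the list as a whole. For ZIC2 the median ratio was 1.07 over 15 pairs (1.08 over all), with 8 higher and 7 lower in EpiSCA (56.8% of all pairs higher). OTX2 had a median of 1.21 over 10 pairs (1.34 over all), with 5 higher and 5 lower (71.2% of all pairs higher). Of the 5 SOX2 pairs, 4 were higher in EpiSCA (71.4% of all pairs), with a median of 1.81 (1.35 over all). The exception was the peak in the Sox2ot exon 11.9 kb upstream. The only POU3F1 pair had a ratio of 1.14 (58.8% of all pairs higher).

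**Figure D3:**
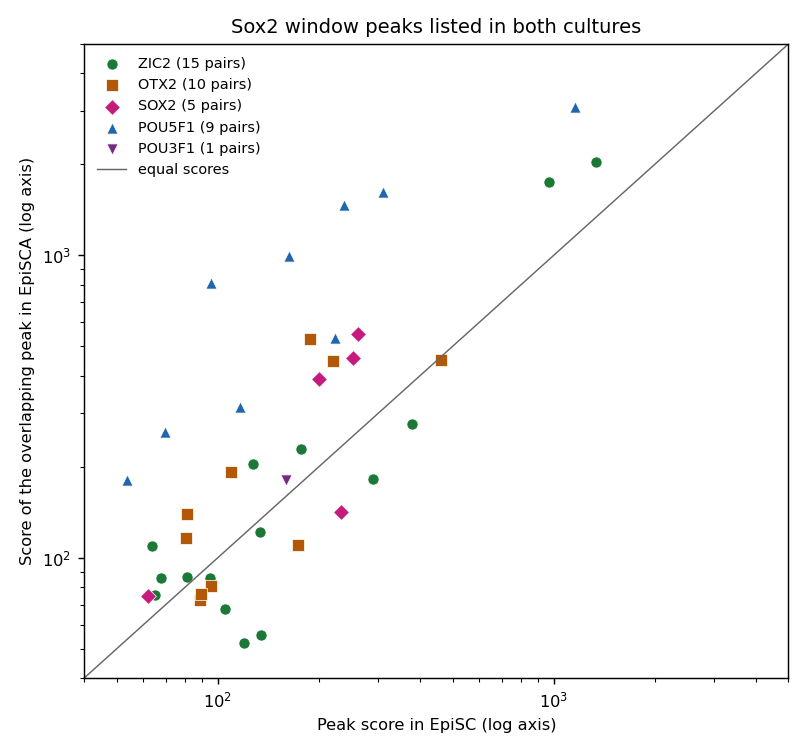
Scores of the 40 pairs of overlapping peaks outside the coding sequence, with the EpiSC score on the horizontal and the EpiSCA score on the vertical axis, both log. All 9 POU5F1 pairs lie above the line of equal scores, whereas ZIC2 and OTX2 pairs lie on both sides of it.

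Most sites of the window held peaks of 1 factor. When overlapping peaks were chained, the window outside the coding sequence held 61 sites over both cultures, and 49 of these were of 1 factor, 9 of 2 and 3 of 3 factors. Sites of 4 or 5 factors numbered 0. A site could join peaks of different cultures, as for POU5F1 and SOX2 at 3.95 kb downstream. ZIC2 alone and POU5F1 alone made 15 sites each, OTX2 alone 11 and SOX2 alone 8, and the most frequent combination was ZIC2 with OTX2 at 4 sites. Peaks were listed in both cultures at 32 sites, in EpiSC only at 8 and in EpiSCA only at 21. The whole POU5F1 list was larger in EpiSCA (126908 peaks against 62457), as were those of OTX2 and SOX2, while those of ZIC2 and POU3F1 were smaller. By annotation, 30 sites were in Sox2ot introns, 5 in Sox2ot exons and 26 between genes. Chained within each culture, 9 of 42 EpiSC sites and 10 of 55 EpiSCA sites had peaks of 2 or more factors. Sites were not chained over the whole genome, so no share of all sites stands beside these counts.

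ZIC2 peaks around Sox2 met other factors at a higher share than in the whole lists, and POU5F1 peaks at a lower one. In EpiSC, 8 of 19 ZIC2 peaks overlapped a peak of another factor (19.1% of the whole list), and the counts were 7 of 13 for OTX2 (31.3%), 3 of 9 for SOX2 (33%), 2 of 11 for POU5F1 (61%) and 1 of 1 for POU3F1 (38.1%). In EpiSCA they were 9 of 22 for ZIC2 (19.4%), 5 of 15 for OTX2 (35.3%), 2 of 9 for SOX2 (37.9%), 3 of 18 for POU5F1 (56.4%) and 2 of 2 for POU3F1 (64.7%). For OTX2 in EpiSCA the share was that of the list. The SOX2 count of EpiSC includes the peak from 34547091 to 34547978, which overlapped only the ZIC2 peak on the coding sequence. The partner of POU5F1 was POU3F1, ZIC2 or OTX2 but not SOX2, since the POU5F1 and SOX2 peaks 3.91 and 4.06 kb downstream belonged to different cultures. With counts of this size, 1 or 2 peaks move a share by a large amount.

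The Sox2 window held few peaks compared with the windows of other genes. Windows of the same reach were counted around each of 22380 protein-coding genes, with peaks on coding exons included. With all factors together, the Sox2 window had 56 peaks in EpiSC and 68 in EpiSCA, while the median gene had 94 and 99 and the lower quartile was 68 and 79, and 14.6% and 15.2% of genes had fewer. By factor, Sox2 was below the median gene for ZIC2 (20 against 30 in EpiSC, 23 against 26 in EpiSCA), for OTX2 (14 against 27, 15 against 25) and for POU3F1 (1 against 3, 2 against 3). It was above the median for POU5F1 (11 against 7 in EpiSC, 18 against 13 in EpiSCA), with 72.7% and 65.4% of genes having fewer. For SOX2 it was above the median in EpiSC (10 against 7) and equal to it in EpiSCA (10 against 10). These counts include the SOX2 peak on the coding sequence. Without that peak Sox2 had 9 in each culture, above the median in EpiSC and below it in EpiSCA. The window around a gene widens with its gene body, which is 2457 bp for Sox2.

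**Figure D4:**
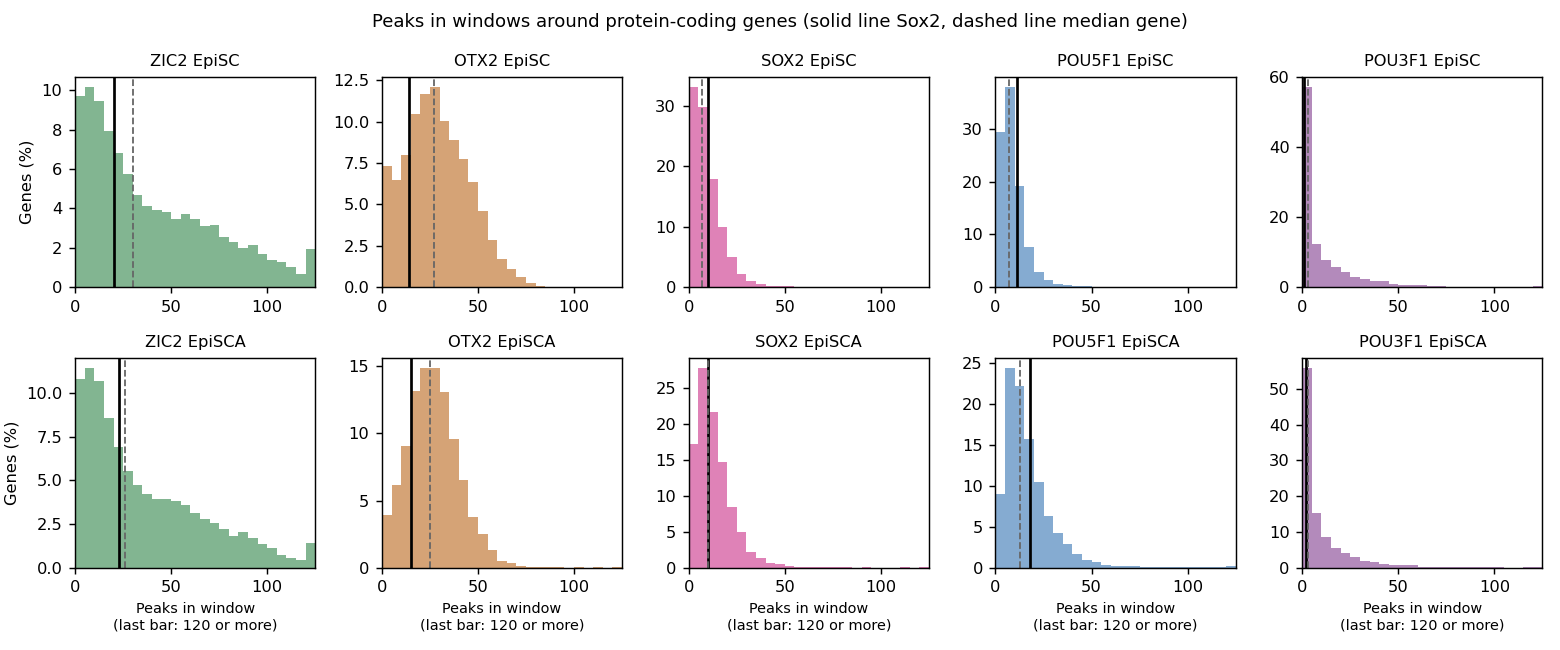
Peaks within 200 kb of protein-coding genes (horizontal axis, the last bar holding 120 or more) against the share of 22380 genes in percent, for each factor and culture. The solid line is Sox2 and the dashed line the median gene; Sox2 lies left of the median for ZIC2, OTX2 and POU3F1 and right of it for POU5F1.

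A factor's own sequence was found under ZIC2, OTX2 and SOX2 peaks of the window at shares near those of the whole lists, whereas the exact octamer was not found near the midpoint of any POU5F1 peak there. A ZIC stretch within 100 bp of the midpoint was found in 17 of 19 ZIC2 peaks of EpiSC (84.5% of all ZIC2 peaks, 62.0% of stretches of equal size 1000 bp to either side) and in 20 of 22 of EpiSCA (85.6%, 62.6%). GGATTA was found in 3 of 13 OTX2 peaks in EpiSC (23.6%, 9.02%) and 4 of 15 in EpiSCA (21.8%, 8.51%). The other OTX sequence, GGTAAT, was found in 2 of 13 (7.22%, 5.33%) and 1 of 15 (7.47%, 5.54%). A SOX sequence was found in 7 of 9 SOX2 peaks in EpiSC (85.9%, 56.8%) and 8 of 9 in EpiSCA (85.1%, 56.5%). Over the whole window cut into 2002 stretches of the same size, 55.2% held a ZIC stretch, 9.74% GGATTA, 5.24% GGTAAT and 48.0% a SOX sequence. Sequences of other factors departed from the lists in places. A SOX sequence was found in 14 of 22 ZIC2 peaks of EpiSCA (27.2% of the list, 42.3% of its flanks) and 8 of 19 of EpiSC (27.1%, 42.6%). A ZIC stretch was found in 10 of 15 OTX2 peaks of EpiSCA (37.6%, 43.9%) and 6 of 13 of EpiSC (46.5%, 49.0%). Within 50 bp of the midpoint, the SOX sequence was in 4 of 22 ZIC2 peaks of EpiSCA and 6 of 19 of EpiSC. The ZIC stretch was there in 5 of 15 OTX2 peaks of EpiSCA and 5 of 13 of EpiSC. List shares within 50 bp were not counted.

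An exact octamer was found in 0 of 11 POU5F1 peaks of EpiSC and 0 of 18 of EpiSCA, while 18.6% and 13.6% of all POU5F1 peaks and 2.05% of the stretches of the window held one. At such shares few of 11 or 18 peaks would hold one, so the difference from the lists rests on few peaks. The cultures shared 9 of these POU5F1 sites, so their counts are not separate observations. With up to 1 mismatch, 8 of 11 and 12 of 18 held the octamer, against 80.1% and 73.8% of all POU5F1 peaks and 30.6% of the stretches of the window. Over whole peaks in place of the central 200 bp, the exact octamer was found in 4 of 11 and 4 of 18. The median POU5F1 peak of the window was 1030 bp wide in EpiSC and 951.5 bp in EpiSCA. Whole peaks of the full lists were not searched, so no share of the list stands beside counts over whole peaks. Many POU5F1 peaks also stood on simple repeats, which were searched for as runs of alternating purine and pyrimidine bases of 20 bp or more. In the site 181 kb downstream such a stretch ran for 47 bp, and octamer matches with 1 mismatch, such as ATGTATAT, lay within it. The octamer form ATGCATAT itself alternates in this way, so matches with 1 mismatch and runs can be the same bases. Such runs were found within 100 bp of the midpoint in 5 of 11 POU5F1 peaks in EpiSC and 11 of 18 in EpiSCA. They were found in 29.6% and 21.5% of all POU5F1 peaks, 4.41% and 4.14% of their flanks, and 6.59% of the stretches of the window. Anywhere within the peak, they were found in 8 of 11 and 17 of 18, and the EpiSC peaks without one were those at N2, 3.91 and 18.0 kb downstream. The shares above are for the shorter stretches and cannot be set against these counts. Among the 9 POU5F1 peaks of EpiSCA that EpiSC lacked, 7 had one within 100 bp of the midpoint, against 4 of the 9 that EpiSC also listed. Anywhere within the peak, the counts were 8 of 9 and 9 of 9. Such a stretch was within 100 bp of 0 of 19 ZIC2, 0 of 13 OTX2 and 1 of 9 SOX2 peaks in EpiSC (0.685%, 0.704% and 0.658% of the lists). In EpiSCA the counts were 0 of 22, 0 of 15 and 0 of 9 (0.664%, 0.846% and 0.924%). These stretches were rare in the whole lists of ZIC2, OTX2 and SOX2, so the counts of 0 are not particular to the window. For POU3F1 the counts were 1 of 1 in EpiSC (4.16% of the list) and 1 of 2 in EpiSCA (5.05%), each time at the site 181 kb downstream.

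**Figure D5:**
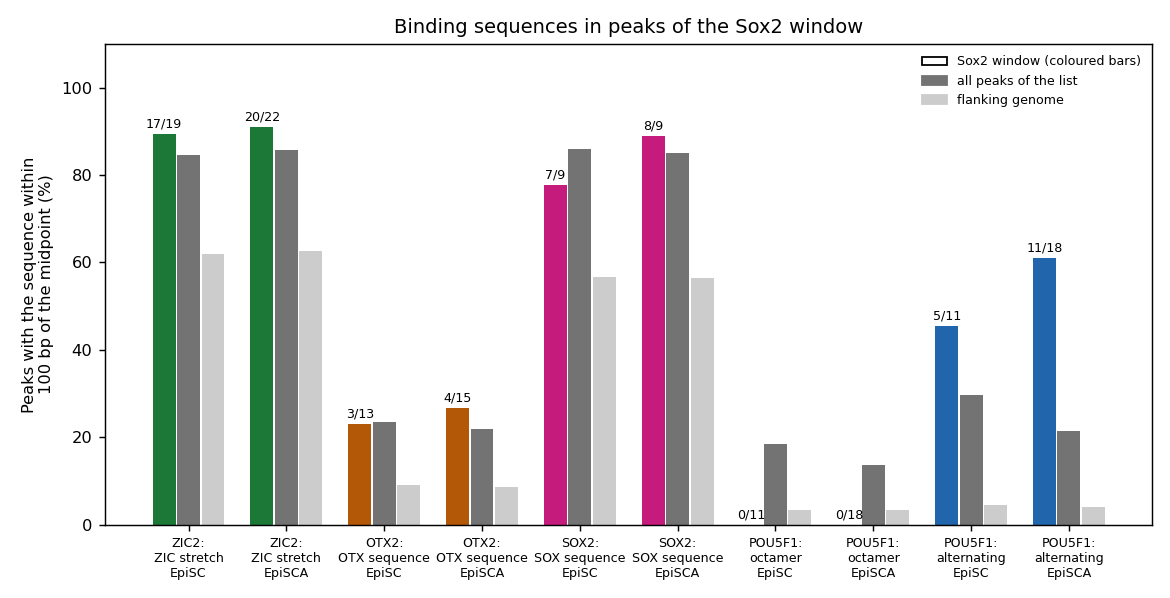
Share of peaks (percent) with the named sequence within 100 bp of the midpoint, for peaks of the Sox2 window (coloured, with counts above), all peaks of the list (dark grey) and the flanking genome (light grey). The octamer is at 0/11 and 0/18 in the window peaks of POU5F1, and alternating stretches are at 5/11 and 11/18.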

How the data were processed

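ChIP-seq of biotinylated ZIC2, OTX2, SOX2, POU5F1 and POU3F1 gave 1 peak list for each TF in EpiSC and in EpiSCA. The input control was not used here. Alignment to mm9 was by Bowtie2, and the authors ran MACS1.4 against the input at default settings, apart from a band width of 150. The deposited score is −10 log10 of the MACS p-value, and it was used as deposited. Which input served the EpiSCA lists is not given in the sources used here. The lists hold no reads, so depth and counting error are unknown.

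Peaks were assigned to the window by their midpoint, and Sox2, Sox2ot and protein-coding genes were taken from GENCODE vM1. Overlap was counted from 1 shared bp, and chained overlaps made a site. Sequence was read from NCBIM37, which is mm9, and peaks whose 100 bp flanks ran off a chromosome or that lay on other contigs were left out of sequence counts. Positions are counted from 1. Sites named were N2, the coding sequence, sites of 3 or more TFs and the highest peak of each list, and others are named by position. The members and lists were chosen with earlier results of these data known. The counting of overlaps and sites was checked on simulated lists with known overlaps. Alternatives were a score of at least 100, the 50000 highest peaks, other window sizes, other overlap rules and other stretches for sequences. Calculations used Python 3.11.15, numpy 2.4.6, scipy 1.17.1 and matplotlib 3.10.9.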

Additional observations from a re-analysis of the deposited data

How the results depend on the processing

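No paired analysis was possible because each TF had 1 library in each culture and the labels give no replicate numbers. Of 44 alternatives to the main counts and shares, 19 stayed within 1.5 times the count, or within the 95% interval of the share, and 25 moved further. This tally does not measure robustness. Counts in another window size or above a score can change in only 1 direction. The interval treats peaks or genes as independent and is narrow for ranks among 22380 genes. The 53 EpiSC and 66 EpiSCA peaks fell to 26 and 38 with a score of at least 100 and to 21 and 22 among the 50000 highest-scoring peaks of each list. In a window of 500 kb they were 124 and 162, and in one of 100 kb the EpiSCA peaks were 39. Sites of 2 or more TFs, 9 in EpiSC and 10 in EpiSCA, numbered 3 and 5 with a score of at least 100, 1 and 2 among the 50000 highest peaks, and 18 and 22 in the 500 kb window. With reciprocal overlap of 50%, 3 such sites were left in EpiSCA. The share of EpiSC peaks also listed in EpiSCA was 88.5% with a score of at least 100, and that of EpiSCA peaks listed in EpiSC was 86.4% among the 50000 highest. Genes with fewer peaks than Sox2 made up 11.7% in EpiSC and 13.1% in EpiSCA with a score of at least 100, 10.8% and 10.2% among the 50000 highest peaks, 13.4% and 12.8% by summed peak width, and 17.8% and 19.7% in windows around gene starts, so Sox2 stayed below the median gene in each. Peaks with the binding sequence of their own TF numbered 27 in EpiSC, and 16 within 50 bp of the midpoint. Of 80 alternatives to counts of single lists, 39 moved by more than 1.5 times. With 1 library for each list and unknown depth, a peak absent from a list was not shown to be unbound.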

Other observations

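The windows of the genes of the other profiled TFs and of Sox3, another SOXB1 gene, differed from that of Sox2 in their makeup. Zic2 had 105 peaks in EpiSC and 118 in EpiSCA, Otx2 91 and 107, Pou5f1 131 and 123, and Pou3f1 124 and 103, all above the 56 and 68 of Sox2. The window of Sox3 was the nearest in number, with 51 and 69. Sox3 had 20 POU3F1 peaks in EpiSC and 19 in EpiSCA where Sox2 had 1 and 2, and 11 ZIC2 peaks in each culture where Sox2 had 20 and 23. Pou3f1 had 0 SOX2 peaks in either culture, a number that 4.92% of genes shared in EpiSC and 1.71% in EpiSCA, and it had 73 and 68 ZIC2 peaks. POU5F1 peaks were most numerous around Zic2, with 18 and 32, while the window of Pou5f1 itself had 7 and 12. The window of Sox1 was not analysed here.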
